A study of Mus musculus with 5 samples.

Results

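The Myb locus was examined as a window of 400 kb on mouse chromosome 10, from 20650000 to 21050000 (mm9). Myb lies on the minus strand from about 20844000 to 20881000, so that coordinates below the gene are downstream of its end and coordinates above 20881000 are upstream of its start. Every called peak that touched the window was taken: 12 of 6578 Hoxa9 peaks, 23 of 26446 C/EBPα peaks, 82 of 100189 H3K4me1 regions and 0 of 33769 H3K27me3 regions, or 117 of 166982 calls in all. The window was chosen on the values it holds, since its strongest Hoxa9 peak was already known to be among the highest scoring of that list. Its values are therefore given as a description, with no test.

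The peaks came from chromatin immunoprecipitation followed by sequencing in hematopoietic progenitors, taken from the bone marrow of C57B6 mice by depleting lineage-positive cells. The cells of every library had received both HA-tagged Hoxa9 and Flag-tagged Meis1 from MIGR1 retroviruses and were kept in IL3, and there were no cells without these transgenes to compare with. Hoxa9 was precipitated with an antibody against the HA tag, which reads the introduced protein and not the cells' own Hoxa9. C/EBPα, H3K4me1 and H3K27me3 were precipitated with antibodies against the protein or the mark itself, and each of the 4 lists came from 1 library, so no value has a replicate error. Whether marrow of several mice was pooled is not stated in the labels, and the identity of the cells could not be checked on marker genes, since no expression was measured. An input library was part of the series and was not analysed here. The fewest tags of any call were 17 for Hoxa9, 15 for C/EBPα, 14 for H3K4me1 and 20 for H3K27me3, and weaker sites are missing from the lists.

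Myb encodes c-Myb, a transcription factor that keeps blood progenitors dividing and whose level falls as myeloid cells mature. Control elements of the gene are known to lie far from its promoter as well as inside the gene, where a block to transcript elongation in the first intron has long been described. Ahi1, the next protein-coding gene below Myb, took its name from an insertion site of a leukemia virus in mice, and Hbs1l is the next one above (neighbours from the RefSeq gene table, GRCm38.p6). Hoxa9 binds DNA together with cofactors of the Meis and Pbx families, while C/EBPα, of the leucine zipper family, drives myeloid differentiation. H3K4me1 is a histone mark found at enhancers and around promoters, and H3K27me3 is the mark set by Polycomb repression.

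The promoter of Myb is shown first because neither factor had a called peak at the start of the gene. The 250 bases before the start are those of RefSeq in build GRCm38.p6, chr10:21160985-21161234 on the minus strand, printed 5′ to 3′ in the sense of the gene with each CG pair in capitals. These coordinates belong to another build than those of the peaks and cannot be set beside them.
Myb promoter: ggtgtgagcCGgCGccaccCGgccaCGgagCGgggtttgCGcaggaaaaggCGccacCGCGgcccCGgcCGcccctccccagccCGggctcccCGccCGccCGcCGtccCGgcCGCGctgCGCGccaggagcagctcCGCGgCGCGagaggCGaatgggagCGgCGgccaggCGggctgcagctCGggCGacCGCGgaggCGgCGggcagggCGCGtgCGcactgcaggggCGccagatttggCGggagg
G and C made up 81.2% of these bases, against a median of 52.4% over 32851 RefSeq promoters, and 0.861% of promoters reached that share. The stretch held 40 CG pairs against a median of 6. It held 0 matches to TTGCNNAA, the core of a C/EBP site, and 0 to TGATNNAT, a composite site of Hox and Pbx proteins, counted on both strands. Of all promoters, 9.56% held the first and 7.68% the second in the same 250 bases, so most promoters lack these letters, and their absence says nothing of either factor.

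The called peaks stood back from this start. The nearest C/EBPα peak ended 4.1 kb downstream of it, inside the gene, and the nearest one upstream began 22.8 kb away. Hoxa9 left a longer stretch of 49.4 kb without a call, from 14.3 kb downstream to 35.1 kb upstream. H3K4me1 had a gap of 5.99 kb across the start, from 20876366 to 20882359, followed by a region of 381 bp with 14 tags, the fewest in any H3K4me1 call. The position of the start is known here only as near 20881000, and distances to it can be off by about 1 kb.

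**Figure D1:**
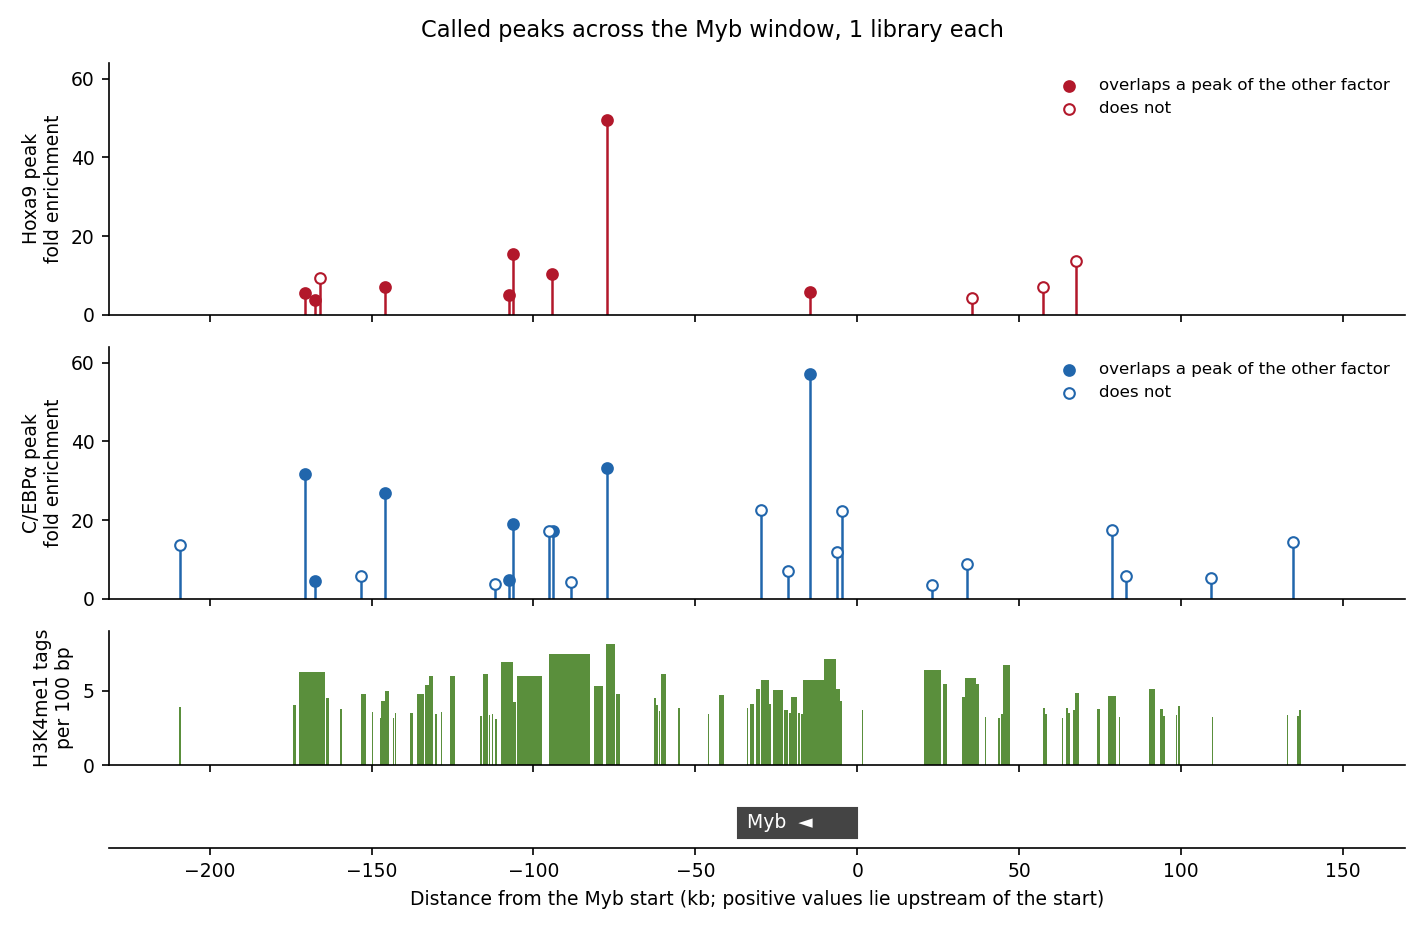
Fold enrichment of each Hoxa9 and C/EBPα peak at its summit, and tags per 100 bp in each H3K4me1 region, against distance from the Myb start in kb (positive values upstream). Filled points overlap a peak of the other factor. The highest Hoxa9 point stands 77.4 kb downstream of the start and the highest C/EBPα point 14.7 kb downstream, inside the gene, and all filled points lie below the start.

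The window was dense in calls of both factors. With the chromosomes divided into 6419 windows of 400 kb at fixed positions, the median window held 0 Hoxa9 summits, 2 C/EBPα summits and 5 H3K4me1 summits. Against the 12 Hoxa9 peaks at Myb, 4 of these windows (0.0623%) held as many or more, and the highest held 13. At least 23 C/EBPα summits were found in 25 windows (0.389%), and at least 82 H3K4me1 summits in 55 (0.857%). Since the window was picked for its peaks, these places in the order are a description. H3K27me3 had no call in the window, as in 39.4% of the fixed windows, and its nearest calls were 54.2 kb below the lower edge and 551 kb above the upper edge. A missing call does not show that the mark was absent.

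The 3 sections of the window were filled unevenly. The 194 kb below the gene, on the side of Ahi1, held 8 Hoxa9 and 12 C/EBPα summits, or 4.12 and 6.19 per 100 kb. The 37.0 kb of the gene held 1 Hoxa9 and 5 C/EBPα summits, and the 169 kb above the start, on the side of Hbs1l, held 3 and 6. C/EBPα was thus densest in the gene, at 13.5 summits per 100 kb, and Hoxa9 densest below it. Over the whole span of the lists there were 0.256 Hoxa9 and 1.03 C/EBPα summits per 100 kb. H3K4me1 covered 33.9% of the bases below the gene, 70.7% of the gene and 18.1% of the bases above it, against 4.64% of the whole span.

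The strongest Hoxa9 peak of the window lay 77.4 kb downstream of the Myb start, past the end of the gene on the side of Ahi1. It ran from 20802609 to 20804263, with its summit 965 bp into a width of 1655 bp. Its 367 tags were 40.7% of the 901 tags in the 12 Hoxa9 peaks, and the next peak held 129. Its fold enrichment of 49.46, the authors' value for the peak over the caller's background, was 3.23 times the next highest of the window and ranked 3 of 6578 in the list. C/EBPα bound the same place with a peak of 176 tags from 20803199 to 20804231, a fold enrichment of 33.33 (rank 851 of 26446), and a summit 59 bp above that of Hoxa9.

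H3K4me1 was called on both sides of this site, with a gap under it. A region of 143 tags ended 1124 bp below the Hoxa9 summit, and a region of 213 tags began 26 bp before the summit and ran on for 2594 bp. Both factor peaks therefore lay partly over an interval with no H3K4me1 call, and H3K4me1 covered 43.3% of the Hoxa9 peak and 66.3% of the C/EBPα peak. The upper region had a fold enrichment of 10.63, against a median of 4.64 over the 82 regions of the window. With 8.13 tags per 100 bp it was also the densest of the 82.

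Other sites on the side of Ahi1 fell into groups at 165.8 to 170.4 kb, 145.7 kb, 106.2 to 107.6 kb and 94.3 kb downstream of the start. The second strongest Hoxa9 peak of the window, from 20774053 to 20775336, had 129 tags and a fold enrichment of 15.33, with its summit 106.2 kb from the start. It overlapped a C/EBPα peak of 125 tags and a fold enrichment of 19.01, whose summit lay 158 bp away, inside a gap of 240 bp between H3K4me1 regions. Next to it a weak pair was called, with 26 Hoxa9 tags (fold enrichment 4.99) and 22 C/EBPα tags (4.68) and summits 36 bp apart. Of these neighbouring pairs, the stronger one was in the upper 5.14% of Hoxa9 peaks by fold and the weaker one below the list's median.

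The peak 94.3 kb downstream, from 20786275 to 20787455, had 90 Hoxa9 tags and a fold enrichment of 10.42. Its C/EBPα partner of 66 tags (fold enrichment 17.34) had a summit 352 bp away, the widest separation among the overlapping peaks of the window. A second C/EBPα peak of 97 tags and nearly the same fold enrichment, 17.33, lay just below, with its summit 942 bp from that of Hoxa9 and no overlap. Both C/EBPα peaks overlapped the lower part of the widest H3K4me1 region of the window, 12.59 kb with 941 tags from 20785913 to 20798498. The rank of its width was 84 of 100189. The summit of the second peak lay 122 bp below the start of this region, and H3K4me1 covered 32.8% of that peak. Inside that region a weak C/EBPα peak of 16 tags was the only other factor call.

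At 145.7 kb downstream, a Hoxa9 peak of 47 tags (fold enrichment 7.14, from 20734841 to 20735686) and a C/EBPα peak of 168 tags (26.9) had summits 18 bp apart, the closest of the window. The Hoxa9 summit lay in a gap of 155 bp between H3K4me1 regions of 45 and 53 tags, and was the only one of the 12 outside a region.

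The farthest group, 165.8 to 170.4 kb downstream, held 3 Hoxa9 peaks within a single H3K4me1 region of 8.07 kb and 503 tags, from 20708590 to 20716660. The Hoxa9 peak farthest from the start, at 170.4 kb, had 21 tags and a fold enrichment of 5.52, close to the list's median of 6.06, and overlapped a C/EBPα peak of 223 tags and 31.62, the third highest C/EBPα fold of the window. The strongest of the 3, at 165.8 kb with 55 tags and a fold enrichment of 9.24, had no C/EBPα peak on it, the closest such summit being at a distance of 1534 bp. Between them lay the weakest pair of the window, with 21 Hoxa9 tags (3.67) and 25 C/EBPα tags (4.53).

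The remaining C/EBPα peaks below the gene had no Hoxa9 call, like most of the whole list, of which 14.2% overlapped Hoxa9. The one at the outer end, 209.0 kb downstream, had 84 tags and a fold enrichment of 13.72, and its nearest Hoxa9 summit was 38581 bp away. Peaks at 153.3, 111.9 and 88.4 kb were weak, with 30, 15 and 16 tags and fold enrichments of 5.72, 3.8 and 4.33. From 20804263 to 20850554, a stretch of 46.3 kb between the strongest Hoxa9 peak and the end part of Myb, neither factor had a call, while H3K4me1 was called at several places in it, among them a region of 1.76 kb and 83 tags that ended 41.1 kb downstream of the start.

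The strongest C/EBPα peak of the window lay inside Myb, from 20865741 to 20867492 with its summit 14.7 kb downstream of the start. It had 321 tags and a fold enrichment of 57.08, which ranked 106 of 26446. The only Hoxa9 peak of the gene lay within it, from 20866163 to 20866712, with 24 tags and a fold enrichment of 5.88 (rank 3602 of 6578), and the summits were 149 bp apart. Both summits were more than 2 kb inside an H3K4me1 region of 6.56 kb and 373 tags, with no gap beneath them. Where in the intron and exon structure this peak falls was not analysed here, since no annotation of mm9 was used.

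The other 4 C/EBPα peaks of the gene had no Hoxa9 call, like most of the whole list, of which 14.2% overlapped Hoxa9. Peaks at 29.8 and 4.6 kb downstream of the start had 115 and 119 tags and fold enrichments of 22.63 and 22.22, and those at 21.4 and 6.2 kb had 37 and 41 tags and fold enrichments of 7 and 11.77. The peak closest to the start, from 20875965 to 20876872, had its summit 35 bp past the last H3K4me1 region of the gene. With H3K4me1 regions joined over gaps of up to 1 kb, 15 of them formed a stretch of 29.5 kb from 20846913 to 20876366, with 1375 tags, which covered most of the gene and stopped 4.6 kb short of the start. Its width ranked 42 of 61676 stretches joined in the same way (0.0681%).

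**Figure D2:**
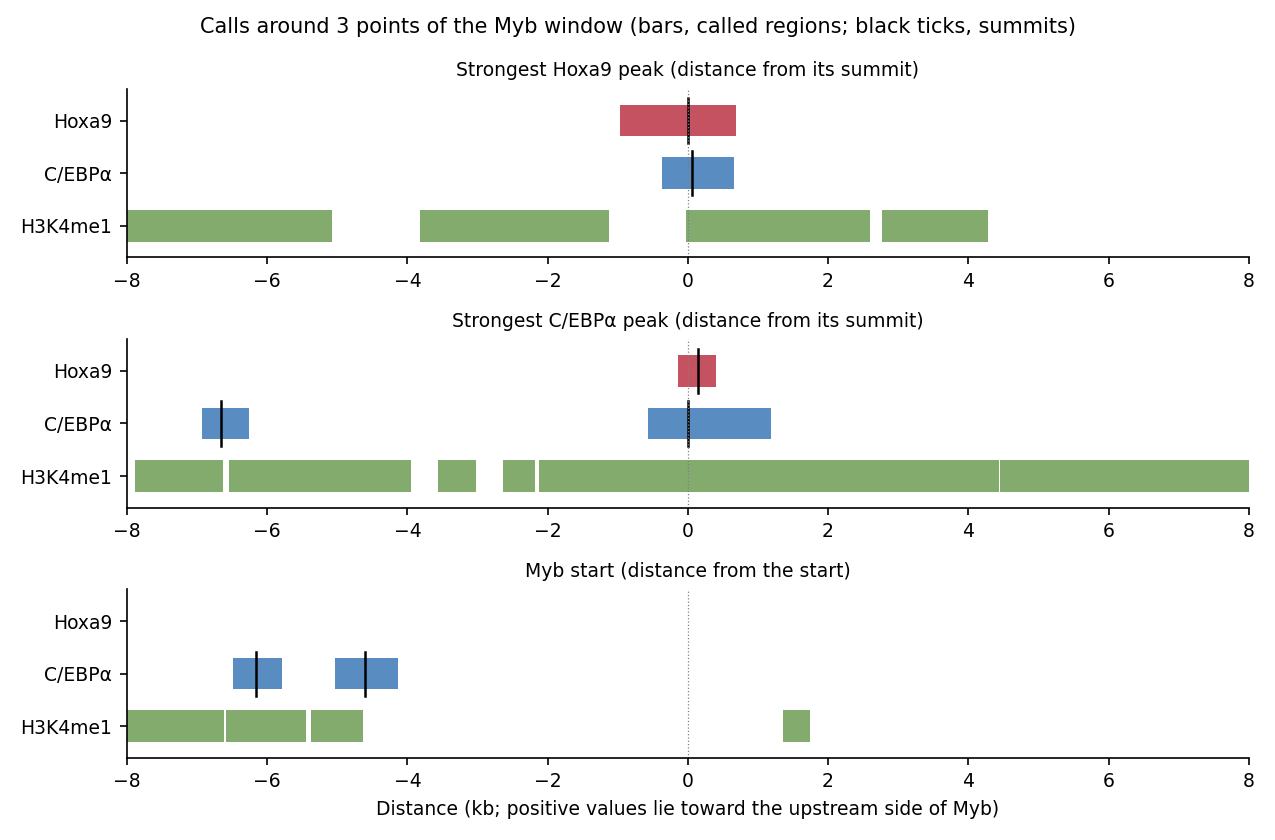
Called regions of Hoxa9, C/EBPα and H3K4me1 within 8 kb of the strongest Hoxa9 summit, the strongest C/EBPα summit and the Myb start, as bars against distance in kb, with black ticks at the factors' summits. H3K4me1 has a gap just below the strongest Hoxa9 summit, runs through the strongest C/EBPα summit, and is not called over 5.99 kb across the start.

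Above the start, toward Hbs1l, both factors were called at separate places. The 3 Hoxa9 peaks lay 35.5, 57.3 and 67.4 kb upstream, with 34, 35 and 52 tags and fold enrichments of 4.37, 7.1 and 13.72. None of them overlapped C/EBPα, and their nearest C/EBPα summits were 1484, 21202 and 11110 bp away. The strongest, from 20948010 to 20948758, was in the upper 7.15% of the Hoxa9 list by fold and the third highest of the window, ahead of every overlapping Hoxa9 peak except those at 77.4 and 106.2 kb downstream. Its H3K4me1 was modest: regions covered 45.0% of the bases within 2 kb of its summit, against a median of 62.8% over all Hoxa9 peaks.

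The 6 C/EBPα peaks above the start had fold enrichments from 3.49 to 17.59. Those at 78.5 and 134.6 kb upstream were the strongest, with 70 and 91 tags and fold enrichments of 17.59 and 14.44. Peaks at 23.1, 34.0, 82.9 and 109.2 kb had 15, 34, 23 and 19 tags. The peaks at 82.9 and 134.6 kb were the only 2 factor peaks of the window that touched no H3K4me1 region, and the second of these lay between regions 1563 bp below and 1190 bp above its summit.

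Counted over the window, 8 of 12 Hoxa9 peaks overlapped a C/EBPα peak by at least 1 bp, a share of 66.7% (95% exact Clopper-Pearson interval 34.9 to 90.1), against 56.9% of the whole list. That share was near the background, which the wide interval of 12 peaks includes. Summits lay within 100 bp of a C/EBPα summit for 5 of 12 Hoxa9 peaks (34.9% in the whole list). Among the 23 C/EBPα peaks, 8 overlapped Hoxa9, or 34.8% (16.4 to 57.3), against 14.2% of the whole list. The window was picked for its peaks and was dense in Hoxa9 calls, which gives its C/EBPα peaks more calls to overlap. The difference from the whole list therefore cannot show a preference for shared sites, and none was tested. These intervals cover counting error only, and neighbouring peaks are not independent. By section, 7 of 8 Hoxa9 peaks below the gene (47.3 to 99.7%) and the only one inside it were shared. Above the start 0 of the 3 were shared (0 to 70.8%). The intervals below the gene and above the start both include the 56.9% of the whole list.

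A fold enrichment of 10 or more was reached by 4 of 12 Hoxa9 peaks, or 33.3% (9.92 to 65.1), against 16.7% of the whole list. For C/EBPα it was reached by 13 of 23 peaks, or 56.5% (34.5 to 76.8), against 35.7%. Both intervals include the share of the whole list. The 4 Hoxa9 peaks include the strongest one, which was known when the window was chosen. The median fold was 7.12 for Hoxa9 against 6.06 in the list, and 13.7 for C/EBPα against 7.74. Among C/EBPα peaks, the 8 that overlapped Hoxa9 had a median fold of 23 and the other 15 a median of 8.8. Over the whole list these medians were 11.6 and 7.41. The 8 overlapping Hoxa9 peaks had a median fold of 6.51 (3.67 to 49.5) and the 4 others 8.17 (4.37 to 13.7). In the whole list the medians were 6.83 and 5.58, in the opposite order. With so few peaks, and the range of the 4 within that of the 8, the order in the window was not established. The 8 pairs of overlapping peaks had a median distance between summits of 70 bp, close to the 75 bp over all 3801 pairs.

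**Figure D3:**
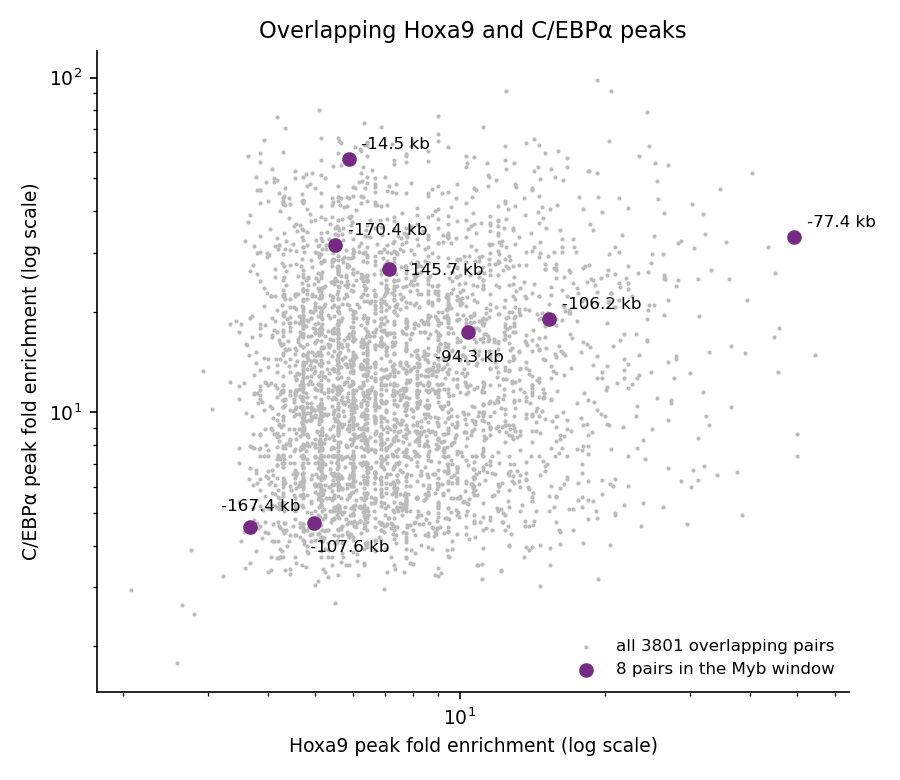
Fold enrichment of overlapping Hoxa9 (x) and C/EBPα (y) peaks on log scales, 1 point per pair: grey for all 3801 pairs, purple for the 8 of the Myb window, marked with the distance of the Hoxa9 summit from the Myb start (negative values downstream). The pair at -77.4 kb is at the far right for Hoxa9, and the pair at -14.5 kb is high for C/EBPα at a Hoxa9 fold of 5.88.

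All 12 Hoxa9 peaks overlapped an H3K4me1 region (73.5 to 100%, against 82.4% of the whole list). Of these, 11 had their summit inside one (61.5 to 99.8%, against 68.6%). Of the C/EBPα peaks, 21 of 23 overlapped a region (72.0 to 98.9%, against 73.6%). Their summit was inside one for 15 of 23 (42.7 to 83.6%, against 62.8%). Each of these intervals includes the share of the whole list. When only peaks and regions with a fold enrichment of 10 or more were kept, 2 of 4 Hoxa9 and 4 of 13 C/EBPα peaks overlapped one. That limit left 4 of the 82 H3K4me1 regions, so fewer overlaps follow from it. The share of the whole lists at this limit was not computed, and the shares above are not its counterpart. The 8 C/EBPα summits outside regions had a median fold of 15.9 (3.80 to 22.6), against 11.8 (3.49 to 57.1) for the 15 inside. In the whole list the order of the medians was the other way, 6.89 outside and 8.35 inside. The medians of the window rest on few peaks, and its highest C/EBPα fold was at a summit inside a region.

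Several summits stood at the very edge of an H3K4me1 region. The Hoxa9 summits at 106.2, 77.4, 57.3 and 67.4 kb from the start lay 14, 26, 36 and 121 bp inside the lower edge of a region, and the one at 145.7 kb lay 14 bp below such an edge. By a limit of 150 bp set after these values were seen, 5 of 12 Hoxa9 summits (15.2 to 72.3%) were at an edge, against 21.7% of the whole list. For C/EBPα it was 9 of 23 (19.7 to 61.5%), against 17.3%. The window held 20.5 H3K4me1 summits per 100 kb, against 3.89 over the whole span, which gives its factor summits more edges to lie near. These shares therefore cannot show a preference for edges, and none was tested. The 5 Hoxa9 summits include the 3 highest folds of the window.

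H3K4me1 around the summits was broad, as it was over the window, of which it covered 30.6% against 4.64% of the whole span. The values below therefore cannot be read as particular to the factor sites. Regions covered a median of 88.4% of the bases within 2 kb of the 12 Hoxa9 summits, from 25.4% at the peak 57.3 kb upstream to 100% at those 167.4 and 14.5 kb downstream. For C/EBPα the median was 79.3%, with a range from 6.72% to 100%, against 45.3% over the whole list. At points 400 bp above the summit, H3K4me1 was called for 12 of 12 Hoxa9 and 19 of 23 C/EBPα peaks, against 72.0% and 59.8% of the whole lists. At 400 bp below the summit it was called for 10 of 12 and 16 of 23, against 71.8% and 60.2%. Of the distances taken, 400 bp above the summit had the highest share in the window for both factors. The difference between the sides rests on few peaks and was not tested.

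**Figure D4:**
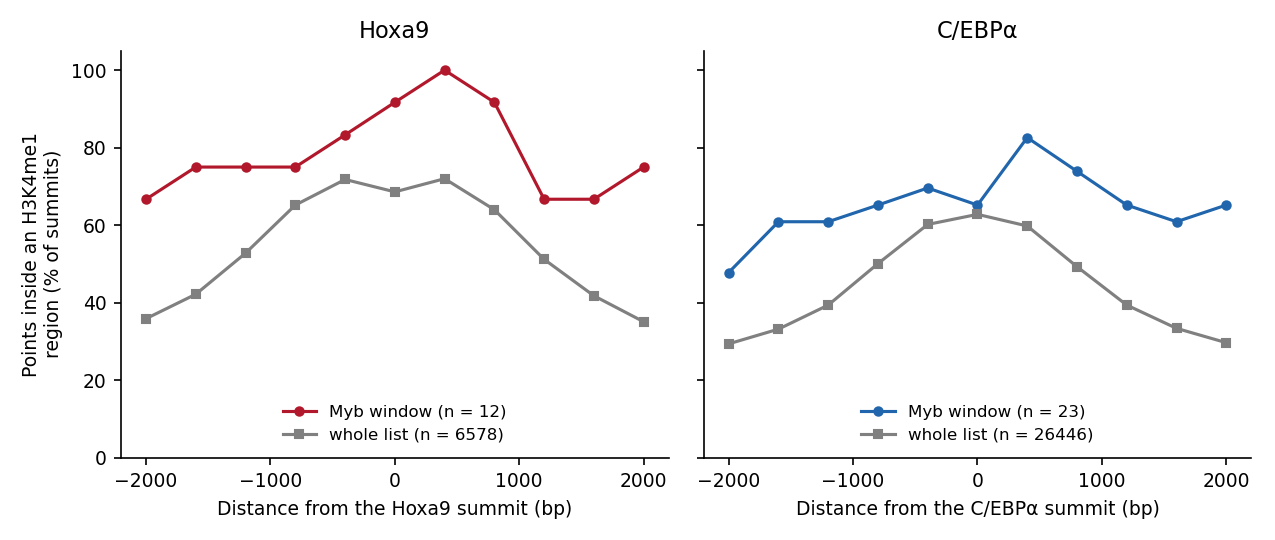
Percent of summits at which a point at the given distance (bp, x; positive values toward higher coordinates) lies inside an H3K4me1 region, for Hoxa9 and C/EBPα, in the Myb window (12 and 23 summits) and in the whole lists (6578 and 26446). The window is above the whole list at every distance, and 2000 bp below the summit it stands at 66.7% for Hoxa9 against 35.9%. At the C/EBPα summit itself the shares are close, 65.2% against 62.8%. H3K4me1 covers 30.6% of the whole window against 4.64% of the whole span, so any point in the window is more often inside a region.

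The limits of the window fell far from any Hoxa9 call, but close to calls of C/EBPα at the lower edge and of H3K4me1 at both. The outermost Hoxa9 peaks lay 60.4 and 101 kb inside the edges, and the next ones outside, with fold enrichments of 6.67 and 5.35, were 90.9 kb below and 229 kb above. For C/EBPα the next peaks outside had fold enrichments of 5.85 and 16.05 and were 4.10 kb below and 46.2 kb above the window, and the outermost inside had 13.72 and 14.44. H3K4me1 regions with fold enrichments of 2.81 and 6.23 lay 3.63 kb below and 3.59 kb above, and the outermost inside had 5.35 and 4.56.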

How the data were processed

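The submitters' processing notes name the build mm9 and the tools MACS 1.4, BWA 0.6.2 and CASAVA 1.8.2. No source used here gives the settings or the control of the peak calling. Peaks were called separately in each library. Per the file headers, the deposited values of each peak were the count of tags, whole and not normalized, a score of 10 times the −log10 p-value, the fold enrichment as a linear ratio, and a false discovery rate in percent. All 4 are the authors' values and were ranked only within a list, and the fold limit of 10 was applied to each list on its own. Scores of exactly 3100 were shared by 5 Hoxa9 and 231 C/EBPα peaks, so ranks were taken by fold. The files give no total of reads per library, so depth is unknown.

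Peaks overlapped if they shared at least 1 bp. A summit was the peak's start plus its deposited offset minus 1. Shares carry 95% Clopper-Pearson intervals (scipy 1.17.1). The overlap code was checked against simulated data. The window, the lists and the peaks described were chosen with earlier results of these data known, and no test was made. The rule for naming peaks took all Hoxa9 peaks, C/EBPα peaks overlapping them and the 10 highest scoring others, H3K4me1 regions at Hoxa9 peaks and the 5 widest, and any H3K27me3 region. C/EBPα peaks and H3K4me1 regions outside that rule were named after their values were seen. Sequence at the summits was not analysed here, since no genome of build mm9 was used.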

Additional observations from a re-analysis of the deposited data

How the results depend on the processing

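Of 69 alternatives to 17 values, 54 left the value within its interval or within 1.5 times and 15 moved it further. A sign was reversed by 0 of them, but only the distance of the strongest Hoxa9 peak has a sign. Several alternatives could not have moved their value. The H3K27me3 values were 0 before any call was removed. No factor summit lay within 1 kb of the start, so moving the start could not change the counts by section. Intervals of the shares were wide, as with 34.9 to 90.1% for Hoxa9 peaks overlapping C/EBPα, so staying within them shows little. Keeping only calls with a fold enrichment of 10 or more left 4 of 12 Hoxa9 peaks, 13 of 23 C/EBPα peaks and 4 of 82 H3K4me1 regions. By section it left 3, 0 and 1 Hoxa9 peaks below, inside and above the gene, and 7 and 2 C/EBPα peaks below and above. With it H3K4me1 covered 7.12% of the window and met 50% of Hoxa9 and 30.8% of C/EBPα peaks. The upper 50% of each list by score left 7 Hoxa9 peaks, 15 C/EBPα peaks and 40 H3K4me1 regions. Fewer calls were kept in both settings by their construction. Counting C/EBPα summits inside H3K4me1 regions, in place of peaks that overlapped one, moved the share from 91.3% to 65.2%, below its interval of 72.0 to 98.9%. In the whole list 62.8% of C/EBPα summits were inside a region. The other alternatives, which moved the start by 1 kb, shortened the window by 50 kb at each edge, placed peaks by their midpoint, extended them by 500 bp or used summits within 100 or 200 bp, stayed within those limits. Each list rests on 1 library, so the spread between cultures is unknown.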
